A study of Sus scrofa with 57 samples.

Results

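Captured methylated DNA was compared between mature adipocytes of obese and lean pigs, and 1093 regions were singled out in which captured DNA was higher in obese pigs and which lay in genes. They were chosen by the captured signal itself. Of 7401 regions that the deposited comparison lists, 7069 lay on chromosomes 1 to 18. The mean of both group means was under 40 normalised reads in 6654 of these, 1801 of those had an obese mean above the lean mean, and 1093 of those shared at least 1 base with a gene locus. The higher obese signal was thus the condition of entry. It is described here without a test.

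The animals were second-generation pigs from an intercross of Duroc pigs with Göttingen minipigs, all with free access to food, and the extremes for fatness formed the lean and obese groups. Adipocytes were freed from retroperitoneal fat with collagenase and collected as the floating cells. Methylated fragments were captured with a methyl-CpG binding protein and sequenced (mDNAcap), CpGs were read after MspI digestion and bisulfite treatment (RRBS), and RNA depleted of ribosomal RNA was sequenced (RNAseq). The labels assign 10 lean and 13 obese pigs to mDNAcap and likewise to RRBS, each with 8 males, and RNAseq covered 5 lean and 5 obese males. No treatment or genotype beyond the cross separates the groups in the labels, which give no age.

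The captured values are 11 per group, listed by group without pig names. One labelled obese pig was not in either list, and another pig labelled obese stood in the lean list, so the lean list held 10 pigs labelled lean and 1 labelled obese. By the labels of sex, the obese list held 7 males and 4 females and the lean list 8 males and 3 females. In number and sex, the lean list matches the lean group that the paper analysed. The value of the pig labelled obese was not picked out of the lean list, and no result without it is given.

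Methylation of cytosines in CpG pairs is a stable mark that DNA methyltransferases write and TET enzymes help to remove. At promoters it goes with silence, whereas the bodies of transcribed genes usually carry dense methylation. Fat cells rely on insulin signalling for glucose uptake and lipid storage, and on a set of transcription factors that install and keep their identity.

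The regions were short. Their median length was 1100 bases (1000 to 2700), and 449 of them (41.1%) had the length of a single 1000-base window. Obese means had a median of 28.9 normalised reads (quartiles 22.1 and 35.1) and lean means a median of 20.1 (14.5 and 25.1). The ratio of obese over lean means ranged from 1.24 to 2.08 with a median of 1.45. It reached 1.5 in 356 regions. Spread among pigs was similar in both groups, with a median coefficient of variation of 0.286 in obese and 0.278 in lean pigs. For comparison, the 1752 regions in genes with a lower obese mean had fewer reads, with medians of 10.2 in obese and 17.0 in lean pigs, and their obese values varied more (0.435 against 0.288).

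**Figure D1:**
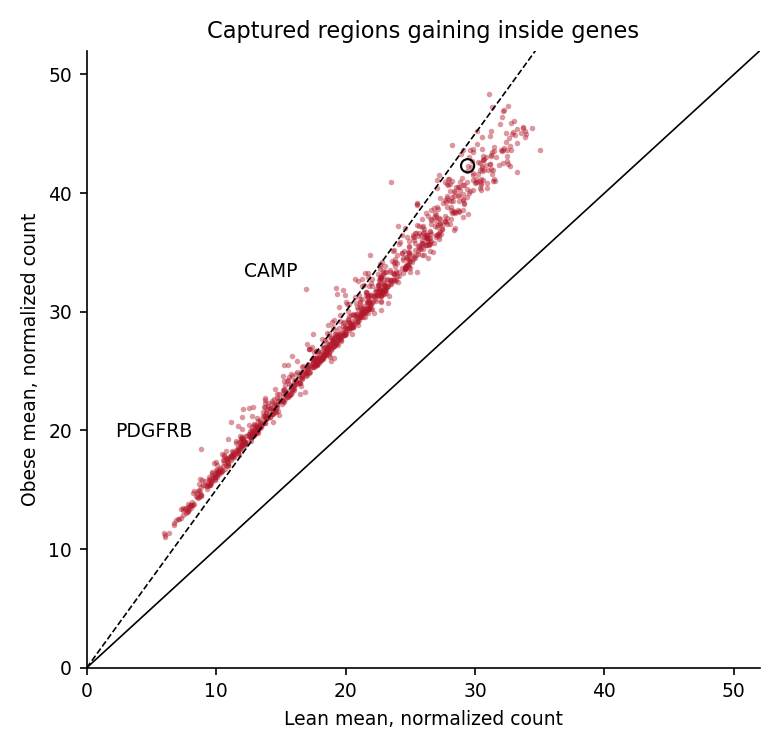
Obese mean (vertical) against lean mean (horizontal) of captured normalised reads, 1 point for each of the 1093 regions gaining inside genes, each mean over 11 values. The solid line marks equal means, the broken line a ratio of 1.5, and the open circle the region at DVL2 whose groups do not overlap; every point lies above the solid line by the way the regions were chosen.

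At the limit of the mean the values ran on without a break. Regions in KBTBD6 and MED27 entered with means of 39.9 and 39.98, and those in ENSSSCG00000022565 and DBH, at 40.03 and 40.09, did not. FAM3B had the smallest ratio, 1.24, followed by DLGAP2 with 1.26. On the other side of equality, among regions in genes on these chromosomes and under the limit, the nearest were in TBC1D22A (0.758) and ENSSSCG00000025680 (0.751). A region with 32 bases in ENSSSCG00000007947 was counted as inside the gene, and a region lying 52 bases from TUB was not.

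Depth differed widely among the libraries. The constant that the authors divided each library by ran from 0.34 to 2.78 in the obese list and from 0.38 to 3.95 in the lean list. As a result, about 11.9 to 76.1 reads stood behind the median region in an obese library and about 7.01 to 86.9 in a lean one. Medians over the 1093 regions ran from 21.1 to 34.9 in the obese libraries and from 17.5 to 23.2 in the lean libraries, so that the groups overlapped. Obese libraries with a constant under 0.5 had medians of 31.8, 32.8 and 34.9, and lean libraries below that limit 18.4 and 19.8. Above the limit, an obese library with a constant of 0.61 had 24.7 and another with 0.89 had 33.6. Without the 5 libraries under 0.5, an alternative chosen after seeing the data, 1091 regions kept a higher obese mean and the median ratio was 1.35. The choice of the regions on these same values all but fixed that number. Reads per genomic bin over the constant had a median of 1.49 in obese and 1.88 in lean libraries. Scaled by reads per bin instead, the median ratio of the regions was 1.84, so its size depends on the scaling. The obese library with the most reads per genomic bin for its constant, 2.72, had the lowest median over these regions, 21.1, and the highest over the losing regions in genes, 15.05. The part of depth in the differences was not tested.

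All 11 obese values lay above all 11 lean values in 1 region. A median of 5 of the 11 obese values lay above the highest lean value. There were 8 regions without such a value, 279 with 1 to 3, 594 with 4 to 6 and 211 with 7 to 10. The lean median was exceeded by at least 9 obese values in 968 regions and by all 11 in 288.

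The single region without overlap lay in ENSSSCG00000025689 (chr3:139858601-139860300, Sscrofa10.2), unnamed in the expression files and paired with DVL2 in the reference list of gene names. Dishevelled proteins pass the WNT signal from Frizzled receptors into the cell. Its obese values ran from 36.9 through a median of 40.7 to 53.8, and its lean values from 25.8 through 28.1 to 35.2. In 4 other regions 10 obese values lay above the highest lean one. They were in HSF2BP, ARID5B, EIF3D and KIAA1522. In ARID5B, which codes for a DNA-binding protein needed for fat storage in mice, the region chr14:70678401-70679400 had obese values of 15.7, 24.7 and 49.4 (lowest, median, highest) and lean values of 12.1, 18.2 and 21.3.

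The 10 largest ratios belonged to PDGFRB (2.08), BAIAP2L1 (1.91), CAMP (1.88), ZC3H12D (1.86), UNC93A (1.84), ENSSSCG00000027791 (1.84), TUB (1.82), WARS (1.82), TTLL8 (1.81) and MICALL2 (1.81). PDGFRB, the beta receptor for platelet-derived growth factor on pericytes and fibroblasts, had obese values of 8.65, 20.1 and 35.8 and lean values of 2.63, 6.85 and 24.2 at chr2:158040201-158041200. Only 2 obese values there lay above the highest lean value. CAMP, the cathelicidin gene of innate defence, had obese values of 12.8, 32.98 and 61.6 and lean values of 10.1, 14.9 and 26.4 at chr13:34386401-34387900, with 8 obese values above the lean range. TUB, the tubby gene whose loss makes mice obese, had obese values of 9.78, 14.3 and 24.6 and lean values of 4.39, 8.27 and 14.1 at chr9:1509901-1511100. In WARS (ENSSSCG00000006721, a name that the reference list does not settle) the lean median was 3.38 against an obese median of 9.94. Lean means of these 10 ran from 5.95 in BAIAP2L1 to 17.0 in CAMP.

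**Figure D2:**
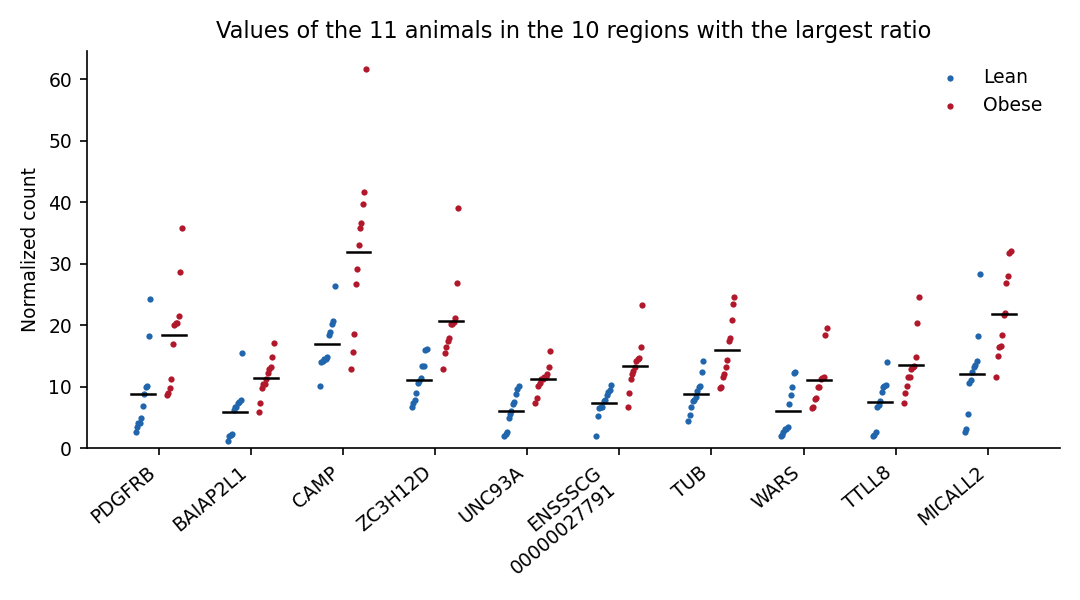
Captured normalised reads of the 11 lean (blue) and 11 obese (red) values, in order of size, for the 10 regions with the largest ratio of means, with a bar at each group mean. Groups overlap in every region shown, and in PDGFRB 2 obese values lie above the highest lean value.

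The regions lay toward the ends of the chromosomes. Within 10 Mb of an end were 723 of them (66.1%), compared with 542 of the losing regions in genes (30.9%), 549 of 708 gaining regions outside genes (77.5%) and 3923 of 21739 gene loci (18.05%). The nearest 2.5 Mb alone held 334 (30.6%), against 6.34% of the losing regions in genes and 5.14% of loci. Median distance to the nearer end was 5.40 Mb for the gaining regions in genes, 18.1 Mb for the losing ones and 32.5 Mb for gene loci. The last position of each chromosome was taken from the last annotated locus or region.

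**Figure D3:**
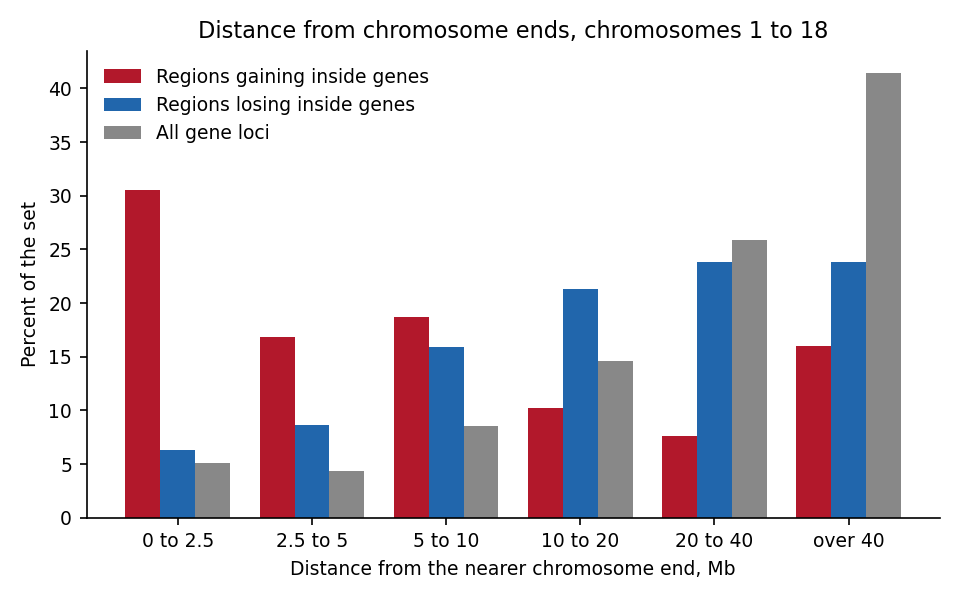
Percentage of each set by distance in Mb from the nearer chromosome end, for regions gaining inside genes (red), regions losing inside genes (blue) and all gene loci (grey). The class nearest to the end holds 30.6% of the gaining regions, 6.34% of the losing regions and 5.14% of gene loci.

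A few stretches were rich in them. Of 497 windows of 5 Mb, 298 held none, whereas the 6 fullest held 225 (20.6%). The window at the start of chromosome 12 had 50 gaining and 8 losing regions in genes, with 81 genes. That from 305 to 310 Mb on chromosome 1 had 44 and 13, and that from 215 to 220 Mb on chromosome 13 had 38 and 5. Chromosome 12 had 10.04 of the gaining regions per 100 genes, and gaining regions made up 58.4% of its regions in genes under the limit. On chromosome 16, only 10 gaining regions were found (18.2%).

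Most of the regions, 969 (88.7%), lay wholly in a locus, 124 crossed a locus edge, and 31 touched 2 or more loci. They fell in 825 of 21691 genes (3.80%). Of these genes, 639 held 1 region, 131 held 2 and 55 held 3 or more. Host genes were longer than genes at large, with a median locus of 27.8 kb against 9.63 kb, and shorter than genes with a losing region (58.2 kb). A losing region was also present in 159 host genes (19.3%), which is 11.6% of the 1367 genes with a losing region. These included CACNA1E (3 losing regions), GMDS, MED27, MGMT, RASGRF1, PRR2 and PTPN21 (2 each), and VAV2, TBC1D22A, GRB10, HDAC4, NCOR1, HLCS, HSPG2 and M6P/IGF2R (1 each).

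GMDS, whose enzyme takes the first step from GDP-mannose to GDP-fucose, held 12 regions over 304 kb of its 340 kb locus on chromosome 7, with ratios from 1.33 to 1.68. Among them, chr7:1216301-1217300 had the largest ratio, with obese values of 10.4, 14.7 and 21.6 and lean values of 4.39, 10.1 and 15.5. GMDS also held 2 losing regions. VAV2 held 10 regions with ratios from 1.39 to 1.54 on chromosome 1. TBC1D22A on chromosome 5 and KIF1A on chromosome 15 held 7 each. In KIF1A, a kinesin motor of axonal transport, they lay within 38.3 kb of a locus of 58.4 kb. SDK1, INPP5A and BAIAP2 held 6 each, the last 2 coding for an inositol trisphosphate phosphatase and for an adaptor first known as a substrate of the insulin receptor kinase. In all, 296 regions (27.1%) had another within 10000 bases, so that regions of a gene were not separate observations.

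RRBS gave a second reading of methylation at a few of these places, as the authors' group means over a listed region. The file gives no depth for single regions and names no pigs. It does not show in which group the pig with differing assignments was counted. The paper counts more pigs as lean than the labels do, and its lean group matches the lean list of the capture in number and sex. The 610 listed RRBS regions with values in at least 5 pigs per group all differed between the groups by at least 10 percentage points. The differences given below are thus not those of unselected places. Among the 610, 10 overlapped a gaining region in a gene. Methylation there was higher in obese pigs in 7 and lower in 3. Over all 610, 403 (66.1%) were higher in obese pigs, and of the 260 in genes 177 (68.1%). Both assays used cells of the same pigs, so these are not readings in other animals.

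PTTG1IP had the largest difference of the 10, with 46.7% in lean and 69.8% in obese pigs over 10 CpGs (chr13:217424250-217424305). Its captured reads had obese values of 11.3, 17.1 and 43.6 and lean values of 4.04, 10.98 and 16.6. ANKMY1 went from 55.6% in lean to 73.5% in obese pigs and INPP5D, a phosphatase of phosphatidylinositol trisphosphate in blood cells, from 64.6% to 81.4%. AFAP1L1 had 34.3% and 49.0%, ITPK1 44.8% and 58.6%, and MKI67, the gene of the Ki-67 proliferation antigen, 51.3% and 62.1%. RASL10A was little methylated, with 4.66% in lean and 17.2% in obese pigs. In the opposite direction, PPP1R26 had 80.1% in lean and 67.7% in obese pigs, GMDS 48.6% and 33.8%, and KBTBD6 46.6% and 33.3%. KBTBD6 was one of the regions closest to the limit of the mean, with obese captured values of 34.6, 45.6 and 85.6 and lean values of 26.2, 33.7 and 39.5, so capture and this RRBS region went in opposite directions. A neighbouring RRBS region in the same captured region, with values in at least 3 pigs per group, had 50.1% in lean and 65.6% in obese pigs (chr11:26510755-26511001). Under the same requirement obese pigs stayed lower in GMDS, with 49.6% in lean and 35.7% in obese pigs, and in both RRBS regions of PPP1R26, with 75.7% and 57.5%, and 87.9% and 69.4%. The lean level was between 20% and 80% in 8 of the 10, with a median of 47.7% against 23.4% over all 610. With values required in only 3 pigs per group, 40 of 49 overlapping RRBS regions were higher in obese pigs (81.6%), beside 1475 of all 2416 (61.1%).

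**Figure D4:**
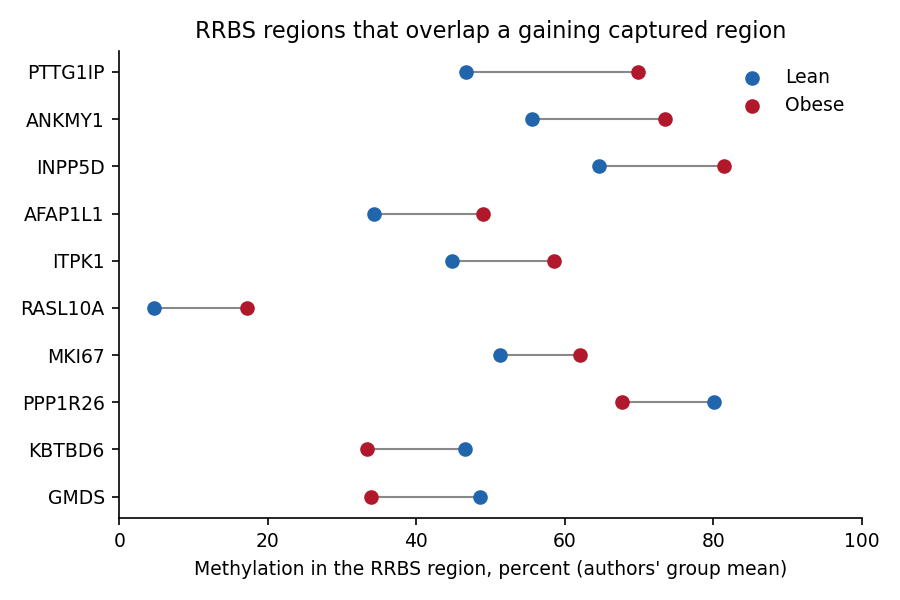
RRBS methylation in percent, the authors' group means in lean (blue) and obese (red) pigs, for the 10 RRBS regions that overlap a captured region gaining inside a gene. The obese mean lies to the right of the lean mean in 7, farthest in PTTG1IP, and to its left in PPP1R26, KBTBD6 and GMDS.

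RNAseq asked whether genes with these regions were expressed differently. The pigs of each group were separate animals, and all 10 were also captured. Values are FPKM divided by a size factor per library (0.691 to 1.23), with both libraries of 1 obese pig averaged. The FPKM files hold no read numbers for single genes. Of 825 host genes, 372 (45.1%) reached a mean FPKM of 1 and were tested, compared with 40.5% of all genes, and 453 were not. At a limma adjusted p under 0.05 there was no host gene, beside 0.00976% of the 10246 genes tested. At an unadjusted p under 0.05 there were 104, of which 89 (23.9%) were higher and 15 (4.03%) lower in obese pigs, beside 10.6% and 10.2% of all genes tested. All 5 obese pigs lay above all 5 lean pigs in 25 host genes (6.72%, beside 2.34%) and below them in 0 (beside 1.79%). The obese mean on the log2 scale was higher in 272 of the 372 (73.1%), beside 49.8% of all genes tested. In bulk cells, fewer cells of a type and less RNA per cell cannot be told apart.

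The median log2 fold change was 0.16 in host genes and −0.00 over all genes tested. Host genes near the chromosome ends were higher in obese pigs in 73.9% of cases and those farther away in 72.0%, compared with 55.2% and 47.7% of other genes in these places. Among the 700 tested genes with a losing region, 91 were also host genes. The other 609 were higher in obese pigs in 53.4% of cases, with a median of 0.02. For each pig, the median deviation of host genes from the gene's mean over all pigs, on the log2 scale, was 0.000149, −0.00936, −0.165, −0.157 and −0.0364 in lean replicates 1 to 5, and 0.206, −0.0331, 0.0879, 0.0198 and 0.110 in obese replicates 1 to 5. Obese replicate 2 was below lean replicates 1 and 2, so the groups overlapped. Lean replicates 3 and 4 were the lowest and obese replicate 1 the highest. Without obese replicate 1 the median log2 fold change of host genes was 0.11.

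**Figure D5:**
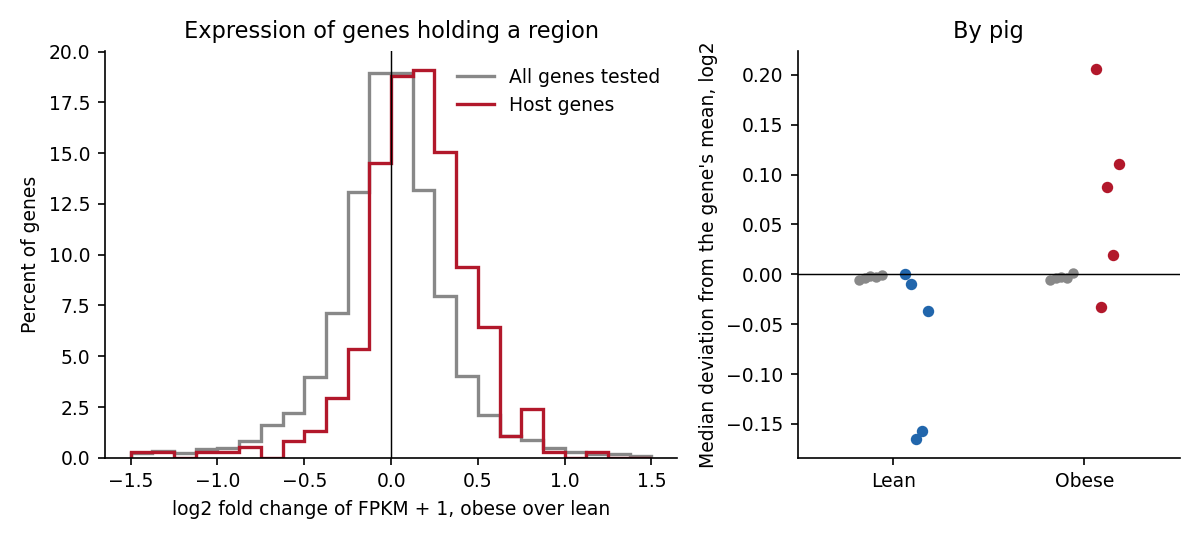
The left panel gives the percentage of genes by log2 fold change (obese over lean, scaled FPKM plus 1, drawn from −1.5 to 1.5, with 2 host genes and 107 of all genes outside) for 372 host genes (red) and all genes tested (grey), with medians of 0.16 and −0.00. In the right panel each point is a pig's median deviation from the gene means for host genes (blue lean, red obese) and for all genes tested (grey), and obese replicate 2 lies below 2 of the lean pigs.

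Of 32 host genes outside the gene lists, named for most regions, largest ratios, RRBS overlap or separation of captured values, 13 were tested, 7 higher and 6 lower in obese pigs. At an unadjusted limma p under 0.05 were PTTG1IP and ITPK1, higher with log2 fold changes of 0.42 and 0.43, and EIF3D (−0.40), UNC93A (−0.32) and WARS (−0.46), lower, beside 10.6% higher and 10.2% lower of all genes tested. ARID5B was lower too, with 18.7 ± 7.61 FPKM in lean and 12.5 ± 6.61 in obese pigs, and HSF2BP was little higher (0.07), both with overlap (SD, n = 5 each).

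DEAF1, a transcription factor gene at the start of chromosome 2, had the smallest p among host genes. FPKM was 4.03, 3.68, 3.29, 3.65 and 3.99 in lean pigs and 6.19, 5.35, 6.68, 5.56 and 5.36 in obese pigs. All obese pigs were above all lean pigs, with a log2 fold change of 0.53 (SE 0.0819, limma adjusted p 0.0549). Its 3 regions lay between 260901 and 267300, and the middle one, chr2:262601-264000, had a mean of 43.2 in obese and 31.2 in lean pigs.

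UBE2G2, a ubiquitin-conjugating enzyme of protein degradation at the endoplasmic reticulum, also held 3 regions, near the end of chromosome 13. FPKM was 9.59, 7.96, 6.16, 6.69 and 6.68 in lean pigs and 10.6, 10.9, 10.97, 11.3 and 11.3 in obese pigs, so that obese pigs varied little (log2 fold change 0.53, SE 0.108, limma adjusted p 0.0886). NIPAL3 had 6.44, 5.82, 4.15, 5.60 and 5.65 in lean and 7.48, 9.19, 8.72, 9.003 and 8.36 in obese pigs (0.56, SE 0.105, limma adjusted p 0.0838). PPP2R1A, the scaffold subunit of protein phosphatase 2A, had 27.0, 20.4, 16.02, 20.5 and 20.7 in lean and 36.8, 27.6, 32.2, 32.2 and 31.5 in obese pigs (0.60, SE 0.135, limma adjusted p 0.0974). The groups did not overlap in any of these, and lean replicate 1 was the highest lean pig in each.

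The other separated host genes with the largest changes were PRR2 (log2 fold change 0.91), PTPN21 (0.67), PITRM1 (0.57), BOP1 (0.55), NUBP2 (0.54) and APBA3 (0.51). PTPN21, a protein tyrosine phosphatase, had 6.56 ± 1.73 FPKM in lean and 10.8 ± 0.815 in obese pigs (SD, n = 5 each). NUBP2, a factor of iron-sulphur cluster assembly, had 1.68 ± 0.317 and 2.88 ± 0.409. The region at PRR2 also touched CLPTM1 and that at BOP1 touched ENSSSCG00000005921, and reads of overlapping genes may be shared out wrongly. When both libraries of obese replicate 5 were taken as separate replicates, 7 host genes passed a limma adjusted p of 0.05, namely APBA3, DEAF1, NIPAL3, PPP2R1A, PTPN21, RAPGEF1 and UBE2G2. This was 1.88% of host genes, near the 1.73% of all genes tested. Without lean replicate 1, 9 passed (2.42%, beside 1.58% of all genes tested), namely DEAF1, GNA12, HLCS, NIPAL3, PPP2R1A, RAPGEF1, TMEM53, UBE2G2 and, lower in obese pigs, WARS.

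Insulin signalling and glucose uptake was the list with the second most regions. It had 15 regions in 7 of its 43 gene entries (16.3%, beside 3.80% of all genes), and 6 entries (14.0%, beside 6.30% of all genes) held a losing region. This list and those below were chosen with earlier results of these data known. Some of its genes, such as TBC1D16 and GRB10, were named by the study. Locus length was not taken into account, so the shares do not test enrichment. AKT2, the kinase that carries the insulin signal to glucose transport in fat cells, held 1 region with a ratio of 1.80 (chr6:44366201-44367400; obese values of 8.18, 13.9 and 21.8, lean values of 2.02, 9.10 and 13.6). Its FPKM was 220, 190, 83.5, 194 and 287 in lean and 176, 238, 232, 253 and 247 in obese pigs, which overlapped (log2 fold change 0.32, SE 0.289). RPTOR, the raptor subunit of the mTOR complex, held 5 regions over 74.4 kb with ratios from 1.37 to 1.501. RPTOR FPKM was 1.69, 1.499, 1.25, 1.73 and 1.62 in lean and 2.98, 1.73, 1.73, 1.67 and 2.12 in obese pigs, with a log2 fold change of 0.24 (SE 0.121, limma adjusted p 0.284; exact permutation p 0.0476).

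PTP1B, the phosphatase that removes phosphate from the insulin receptor, held 1 region (chr17:58472101-58473700; obese values of 12.3, 37.9 and 58.1, lean values of 13.2, 26.2 and 34.8) with 8 obese values above the lean range. Its FPKM of 3.30 ± 0.687 in lean and 3.16 ± 0.702 in obese pigs (SD, n = 5 each) overlapped, and the sign of the difference turned on single pigs. TBC1D16, a GTPase-activating protein for Rab proteins, held a region with a ratio of 1.76, and FPKM was 2.15, 2.26, 1.11, 0.929 and 1.77 in lean and 3.25, 2.54, 2.98, 2.201 and 2.91 in obese pigs. Only obese replicate 4 lay within the lean range (log2 fold change 0.54, SE 0.159, limma adjusted p 0.138; exact permutation p 0.0159). GRB10, an adaptor that dampens the insulin receptor, held 4 regions with ratios from 1.36 to 1.43, and its FPKM of 1.56, 1.70, 5.97, 5.70 and 6.50 in lean and 3.96, 3.56, 0.981, 1.80 and 2.44 in obese pigs overlapped. PRKCZ with 2 regions and TBC1D1 with 1 were under a mean FPKM of 1. Over the whole list 36 genes were tested, 25 (69.4%) were higher in obese pigs, and 5 higher (13.9%) and 2 lower (5.56%) had an unadjusted limma p under 0.05, beside 10.6% and 10.2% of all genes tested.

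Adipogenic and thermogenic regulators had 11 regions in 6 of 33 gene entries (18.2%, beside 3.80% of all genes). A losing one was held by 4 entries (12.1%, beside 6.30% of all genes). PRDM16, a switch gene of brown and beige fat, held 4 regions between 59693301 and 59724800 of chromosome 6, with ratios from 1.48 to 1.552. In the third of them, chr6:59718201-59719400, obese values were 17.3, 24.5 and 28.7 and lean values 10.5, 14.9 and 20.3. PRDM16 was listed at 0 FPKM in 3 lean and 2 obese pigs and at no more than 0.0108 in the others. EBF3 and NCOR1, a nuclear receptor corepressor, held 2 regions each. KLB, the beta-klotho coreceptor of FGF21, held 1 (chr8:32299801-32300800; obese values of 22.4, 28.0 and 46.2, lean values of 13.7, 20.3 and 28.1). It was highly expressed, with 79.7, 85.4, 119, 104 and 129 FPKM in lean and 76.2, 92.6, 103, 82.6 and 70.9 in obese pigs, which overlapped (log2 fold change −0.27, SE 0.168). ZNF423, a zinc finger factor of preadipocyte commitment, had a ratio of 1.45 and 3.12 ± 1.09 FPKM in lean and 4.01 ± 2.40 in obese pigs. That difference changed its sign without obese replicate 1. At PPARGC1B, the ratio of means was 1.44 and that of medians 0.988. Of the list's 29 tested genes, 16 (55.2%) were higher in obese pigs, and 3 higher and 3 lower (10.3% each) had an unadjusted limma p under 0.05, near the shares of all genes tested (10.6% and 10.2%).

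Enzymes of DNA methylation and chromatin had 7 regions in 4 of 42 gene entries (9.52%, beside 3.80% of all genes). As many entries held a losing region, beside 6.30% of all genes. HDAC4, a class IIa histone deacetylase, held 4 regions with ratios from 1.38 to 1.67, and its longest, chr15:152991101-152992900, had obese values of 27.8, 42.6 and 61.0 and lean values of 22.4, 29.0 and 38.3. The related HDAC7 and the histone methyltransferase gene KMT2B held 1 each (ratios 1.52 and 1.57). DNMT3A2, the entry ENSSSCG00000029413 that carries the name of a short form of the de novo methyltransferase, held 1 with a ratio of 1.44. It was the only one of these 4 to be tested, with 1.66 ± 0.467 FPKM in lean and 1.90 ± 0.181 in obese pigs (SD, n = 5 each), which overlapped. Of 29 list genes tested, 15 were higher in obese pigs, and 2 in each direction (6.90%) had an unadjusted limma p under 0.05, beside 10.6% and 10.2% of all genes tested.

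MAPK signalling had a losing region in 13 of 57 gene entries (22.8%, beside 6.30% of all genes). Fewer entries, 7, held the 7 gaining regions (12.3%, beside 3.80% of all genes). PDGFRB was one, and CACNA1A, CACNA1E, CACNA1G and CACNA1S, pore subunits of voltage-gated calcium channels, were 4 others, with ratios from 1.41 to 1.54. The remaining genes were RASGRF1, an exchange factor for Ras (1.52), and the kinase MAP3K14 (1.41; chr12:18410901-18412400, obese values of 28.1, 37.6 and 66.8, lean values of 12.1, 30.3 and 35.2). None of the 7 reached a mean FPKM of 1. Of 29 list genes tested, 16 were higher in obese pigs, and 5 higher (17.2%) and 3 lower (10.3%) had an unadjusted limma p under 0.05, beside 10.6% and 10.2% of all genes tested.

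WNT and TGF-beta signalling had 4 regions, all in WNT genes, in 4 of 51 gene entries (7.84%, beside 3.80% of all genes). A losing region was in 3 entries (5.88%, beside 6.30% of all genes). FZD9, a Frizzled receptor, had a ratio of 1.501. LRP5, the coreceptor, had obese values of 24.1, 32.0 and 41.6 and lean values of 15.8, 20.7 and 27.6 at chr2:3192701-3194000, with 9 obese values above the lean range. AXIN1, the scaffold of the complex that destroys beta-catenin, had a ratio of 1.45. For DVL2 (ENSSSCG00000025689), FPKM was 3.61, 5.18, 4.82, 1.58 and 2.65 in lean and 2.71, 1.47, 2.295, 1.73 and 1.76 in obese pigs. It was lower in obese pigs with overlap of the groups (log2 fold change −0.55, SE 0.229, limma adjusted p 0.213; exact permutation p 0.0794). LRP5 FPKM was 3.08 ± 0.684 in lean and 3.34 ± 1.16 in obese pigs (SD, n = 5 each), and the sign changed without lean replicate 4 or obese replicate 1. Of 26 list genes tested, 14 were higher in obese pigs, and 3 higher (11.5%) and 2 lower (7.69%) had an unadjusted limma p under 0.05, beside 10.6% and 10.2% of all genes tested.

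Imprinted genes had 7 regions in 4 of 17 gene entries, namely the 4 of GRB10 and 1 each in PEG3, IGF2R and NAP1L4. This share of 23.5% was the same for losing regions, beside 3.80% (gaining) and 6.30% (losing) of all genes. PEG3, which is expressed from the paternal copy in mammals, had obese values of 17.3, 44.0 and 70.9 and lean values of 21.1, 30.4 and 39.0 at chr6:56628301-56629900. IGF2R, listed as M6P/IGF2R, clears insulin-like growth factor 2 and had a ratio of 1.46. NAP1L4, a histone chaperone gene, had a ratio of 1.35 and 25.9, 17.1, 15.3, 27.6 and 24.0 FPKM in lean and 26.2, 27.3, 27.3, 27.4 and 32.4 in obese pigs (log2 fold change 0.37, SE 0.165, limma adjusted p 0.233; exact permutation p 0.0476). Lean replicate 4 lay among the obese pigs and the other lean pigs below them. Whether the regions differ between parental copies was not tested. Of 9 list genes tested, 4 were higher in obese pigs, and 1 higher (11.1%) and 2 lower (22.2%) had an unadjusted limma p under 0.05, beside 10.6% and 10.2% of all genes tested.

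Matrix and adhesion genes had 12 regions in 8 of 53 gene entries (15.1%, beside 3.80% of all genes). A losing one was held by 3 entries (5.66%, beside 6.30% of all genes). THBS2, a thrombospondin secreted into the matrix, held 2 regions near the start of chromosome 1, with ratios of 1.40 and 1.43. Its FPKM was 13.8, 13.5, 27.3, 15.1 and 10.7 in lean and 4.20, 12.7, 7.203, 2.92 and 4.63 in obese pigs. Only obese replicate 2 reached the lean range, and the log2 fold change was −1.30 (SE 0.335, limma adjusted p 0.121; exact permutation p 0.0159). COL4A1 and COL4A2, the basement membrane collagen chains of chromosome 11, held 2 regions and 1. In COL4A2 (chr11:84674401-84675500) obese values were 19.6, 34.8 and 53.7 and lean values 12.1, 26.4 and 32.3. FPKM of COL4A1 was 85.7 ± 16.2 in lean and 70.9 ± 13.7 in obese pigs, and that of COL4A2 39.7 ± 11.8 and 39.6 ± 10.1 (SD, n = 5 each), with overlap in both. COL5A1 held 2 regions, and HSPG2, LAMC3 and ADAMTSL2 held 1 each, with ratios from 1.41 to 1.57. TNS3, a tensin of focal adhesions, held 2 with ratios of 1.56 and 1.47, and 5.52 ± 1.77 FPKM in obese pigs overlapped 3.68 ± 1.61 in lean pigs. Of 40 list genes tested, 18 (45.0%) were higher in obese pigs, and 2 higher (5%) and 5 lower (12.5%) had an unadjusted limma p under 0.05, beside 10.6% and 10.2% of all genes tested.

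Lipid storage, synthesis and lipolysis had a losing region in 2 of 30 gene entries (6.67%, beside 6.30% of all genes). The list had 1 gaining region in 1 entry (3.33%, beside 3.80% of all genes), in HLCS. This gene codes for the enzyme that attaches biotin to carboxylases such as acetyl-CoA carboxylase. Its region, chr13:210659801-210661000, had obese values of 18.5, 28.3 and 38.1 and lean values of 10.1, 17.5 and 25.8. HLCS FPKM was 41.4, 24.3, 13.6, 29.5 and 21.3 in lean and 43.9, 40.8, 51.5, 40.8 and 47.8 in obese pigs. Lean replicate 1 was the only lean pig within the obese range (log2 fold change 0.85, SE 0.241, limma adjusted p 0.137; exact permutation p 0.0238). Of 30 list genes tested, 19 (63.3%) were higher in obese pigs, and 4 higher (13.3%) and 2 lower (6.67%) had an unadjusted limma p under 0.05, beside 10.6% and 10.2% of all genes tested.

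Genes that the study named in its text or took up for follow-up in its supplements formed a list chosen on these samples. It is thus no independent evidence of direction. Losing regions lay in 11 of its 43 gene entries (25.6%, beside 6.30% of all genes). The list had 16 gaining regions in 7 entries (16.3%, beside 3.80% of all genes). TBCD, a cofactor of tubulin folding near the start of chromosome 12, held 5 of them, with ratios from 1.36 to 1.52, and 5 more gaining regions with a mean over the limit. Its FPKM was 2.01, 2.04, 1.49, 1.62 and 2.12 in lean and 3.22, 2.18, 3.09, 2.76 and 3.23 in obese pigs, without overlap (log2 fold change 0.45, SE 0.106, limma adjusted p 0.105; exact permutation p 0.00794). MGMT, which repairs alkylated guanine, held 2 gaining and 2 losing regions, and in chr14:150683801-150684900 obese values were 12.2, 26.3 and 51.2 and lean values 10.7, 18.2 and 25.7. MGMT FPKM was 18.6, 23.2, 14.7, 16.01 and 25.1 in lean and 26.9, 23.4, 37.3, 34.7 and 47.5 in obese pigs, with obese replicate 2 alone in the lean range (log2 fold change 0.75, SE 0.209, limma adjusted p 0.134). Of 43 list genes tested, 27 (62.8%) were higher in obese pigs, and 14 higher (32.6%) and 5 lower (11.6%) had an unadjusted limma p under 0.05, beside 10.6% and 10.2% of all genes tested.

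Among markers of cell types, these regions numbered 0 in 8 adipocyte, 7 endothelial and 12 macrophage and leukocyte gene entries, and 1, that of PDGFRB, in 11 fibroblast and preadipocyte entries (9.09%). Beside 3.80% of all genes, so few entries do not set the markers apart. Of 14 adipocyte markers in the list, 8 had an entry. CIDE-C was the most abundant of them with a mean of 446 FPKM, beside 396 for the fibroblast marker COL3A1. The summed FPKM of the adipocyte markers was 1454, 1370, 1451, 1671 and 1607 in lean and 1759, 1605, 1467, 1527 and 1362 in obese pigs. The groups overlapped (exact permutation p 0.690). Of 7 adipocyte markers tested, 4 were higher in obese pigs. At an unadjusted limma p under 0.05 was 1 of them (14.3%, beside 10.6% of all genes tested). Fibroblast marker sums were 659, 739, 235, 472.7 and 704 in lean and 515, 521, 630, 409 and 260 in obese pigs, led by COL3A1 (exact permutation p 0.556). Of these markers 8 were tested and 0 were higher in obese pigs, with a median log2 fold change of −0.55. At an unadjusted limma p under 0.05, 1 was lower (12.5%, beside 10.2% of all genes tested). Endothelial sums were 7.38 ± 5.21 in lean and 6.69 ± 2.499 in obese pigs, led by PECAM1 (exact permutation p 0.849, n = 5 each). Macrophage and leukocyte sums were 12.1 ± 3.48 and 10.9 ± 3.34, led by C1QA, with CD163 listed at 0 in every pig (exact permutation p 0.611, n = 5 each). The 1 endothelial gene tested was higher in obese pigs and 0 of 4 macrophage and leukocyte genes tested were. An unadjusted limma p under 0.05 was found in 0 of either kind, beside 10.6% higher and 10.2% lower of all genes tested. The part of these cells in the expression of host genes was not tested.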

How the data were processed

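Methylated DNA capture, RRBS and RNA sequencing were made on adipocytes of lean and obese pigs, grouped by the phenotype in the labels. The captured signal, deposited for each region as 11 values per group and their means, is a read number that the authors divided by 1 constant per library after trimming (Trimmomatic 0.22), mapping with segemehl to Sscrofa10.2 and merging of 1000-base windows in diffReps. Values times the constant approximate reads. RRBS values are group means of the methylation fraction, deposited by the authors from Bismark 0.10, Bowtie2 2.1.0 and metilene, and are printed as percent. FPKM were deposited by the authors per library (STAR 2.3.1, Cufflinks 2.2.0). Tool versions are those of the submitters' processing notes.

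Members were found by overlap of at least 1 base with loci in the FPKM files. FPKM were divided by median-of-ratios size factors, both libraries of obese replicate 5 averaged, and log2(FPKM + 1) of 10246 genes with a mean of at least 1 was fitted in limma 3.58.1 with a trended prior and Benjamini-Hochberg adjustment (R 4.3.3; Python 3.11.15, pandas 2.3.3, numpy 2.4.6). Fold changes are on this scale and understate those of low genes, and 9 genes with a failed estimate were left out. For named genes the difference of means was also put to an exact permutation test (two-sided). The scripts were tested on simulated data.

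The text names the 10 members with the largest ratio, the genes with the most members (7, with ties), members at 13 lists, at RRBS regions or without overlap, and the 10 separated host genes with the largest fold change. The members next in separation and the genes called under other settings were named after their values were seen. Members and lists were chosen with earlier results of these data known. Of 825 host genes, 717 carried a name in the files, 51 took one from the reference list and 57 had none; in 65 of 583 with both, the names differed. The deposited comparisons of the authors (fold changes, p-values and q-values of captured regions, their clusters, RRBS regions and genes) were not used beyond the listing of regions. Exons, introns and sequences of this build were not analysed here.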

Additional observations from a re-analysis of the deposited data

Results flagged for a closer look

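The groups of 5 pigs that were examined numbered 76 and covered only part of the named genes. In 7 of the 76, 1 pig stood apart. Its gap to the nearest other, as a share of the group's range, was above Dixon's 95% critical value of 0.71. Chance gives about 1 in 20 groups, or 3.8 here. Groups of 11 captured values were not examined in this way. Obese replicate 1 was the pig in 4 of them. It had the lowest obese FPKM of AKT2, 175.6, with the others between 231.6 and 252.9. It had the highest obese FPKM of HSPG2, 20.8 (others 6.94 to 10.7), of COL4A1, 95.0 (60.7 to 67.2), and of COL4A2, 57.0 (30.9 to 37.8). For NAP1L4, obese replicate 5 was highest with 32.4 (26.2 to 27.4). Among lean pigs, replicate 3 was highest for THBS2 with 27.3 (10.7 to 15.1) and replicate 2 for PTP1B with 4.48 (2.73 to 3.18). The cause was not tested.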

How the results depend on the processing

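The number of member regions stayed within 1.5 times of 1093 when a locus had to hold most of a region (1048), loci were extended by 5000 bases (1222), only named genes counted (962), the limit of the mean was 30 (816) or was dropped (1224). With a ratio of at least 1.5, 356 were left, by construction. Scaling by the median of ratios or by reads per bin kept 1093 with a higher obese mean, with median ratios of 1.84 and 1.84. Medians in place of means kept 1091. The choice by these same values all but fixed these counts. The median-of-ratios factors came from the listed regions, most of which had a lower obese mean, so that ratio depends on the list. Only the region of PPARGC1B among those named turned, with a ratio of medians of 0.988. RRBS regions higher in obese pigs numbered 7, 11 within 1000 bases, and 40 with 3 pigs per group required, since more regions enter.

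Host genes past a limma adjusted p of 0.05 were 0 with a pseudocount of 0.1, with genes from a mean FPKM of 0.1, and with unscaled FPKM. They were 7 with both libraries of obese replicate 5 as separate replicates (1.88%, beside 1.73% of all genes), which counts that pig 2 times, and from 0 to 9 when single pigs were left out. The 9 came without lean replicate 1 (2.42%, beside 1.58% of all genes); the cause was not tested. Host genes lower at an unadjusted p under 0.05 were 15 of 372 tested in the main fit. They were 23 of 582 with genes from a mean FPKM of 0.1 and 9 of 372 with unscaled FPKM. In either direction, these 2 settings gave 24.1% and 20.2% of host genes, beside 18.6% and 13.6% of all genes tested. Over these settings and the omissions of single pigs, host genes at an unadjusted p under 0.05 made up 20.2% to 32.5% of those tested, beside 13.6% to 26.5% of all genes tested.

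Among 52 named host genes (34 of lists or separated, 18 others) under 14 settings, 16 values in 5 genes changed sign, each of a small difference. The log2 fold change of COL4A2 was −0.012 with unscaled FPKM and −0.01, −0.09, −0.04 and −0.13 without lean replicate 1, lean 3, lean 4 and obese 1, in a range up to 0.16. That of PTP1B was 0.041 without lean replicate 2 and 0.03 without obese replicate 4. LRP5 had −0.03 without lean replicate 4 and −0.072 without obese replicate 1 (up to 0.18), and ZNF423 −0.032 without obese replicate 1 (up to 0.36). TBC1D22A ran from −0.10 without lean replicate 4 to 0.051 without lean replicate 5. No paired analysis was possible because each pig belongs to 1 group. Captured values rest on few reads in the shallow libraries, and the files give no depth for single FPKM values or RRBS means.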

Other observations

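Beyond the genes named by the lists, host genes lower in obese pigs included GAS6, a ligand of TAM receptors, with 10.6 ± 3.99 FPKM in lean and 4.78 ± 2.75 in obese pigs (log2 fold change −1.06), and ECE1, the endothelin-converting enzyme, with 5.50 ± 1.17 and 3.39 ± 0.856 (−0.57; SD, n = 5 each). Neither passed the limma adjusted p of 0.05 (0.141 and 0.1295), and both were picked after their values were seen. PCK1, the enzyme of glyceroneogenesis, had 19.8 ± 36.0 FPKM in lean and 1.88 ± 1.24 in obese pigs, with a spread among lean pigs larger than the difference (limma adjusted p 0.312).

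Higher in obese pigs without overlap, although with smaller changes, were CUL4A, the scaffold of a ubiquitin ligase, with 5.75 ± 0.412 and 7.34 ± 0.688 FPKM and 3 regions, and BMP6, a bone morphogenetic protein, with 3.19 ± 0.297 and 4.02 ± 0.286 and 1 gaining and 4 losing regions (SD, n = 5 each; limma adjusted p 0.126 and 0.138). Of 24 tested host genes with 3 or more regions, 5 (20.8%) had all obese pigs above all lean pigs, beside 6.72% of host genes and 2.34% of all genes tested, but 15 (62.5%) had a higher obese mean, fewer than the 73.1% of host genes. The groups overlapped in the genes with 6 or more regions that were tested. GMDS had 6.76 ± 1.12 FPKM in lean and 6.10 ± 0.715 in obese pigs, TBC1D22A 7.19 ± 1.18 and 7.11 ± 0.715, INPP5A 6.48 ± 1.92 and 7.87 ± 0.746, and BAIAP2 1.28 ± 0.683 and 1.59 ± 0.22 (SD, n = 5 each). VAV2, KIF1A and SDK1 were under a mean FPKM of 1.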
